A study of Homo sapiens with 9 samples.

Results

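The binding sites described here lie in the longest human protein-coding genes. They were taken from 1 list of SF3B1 binding sites mapped by iCLIP in K562, an established human leukaemia line. A site belonged to the set when its centre fell inside exactly 1 protein-coding gene span of RefSeq GRCh38.p14 and that span was at least 300 kb long. Of the 96852 sites in the list, 2772 met this rule (2.86%, 95% Wilson interval 2.76% to 2.97%, which covers counting error only). They lay in 208 of the 773 genes of this length, with 1387 plus-strand and 1385 minus-strand sites. Another 86 sites in such genes also fell in a second protein-coding gene and were left out, 20 of them in GPHN.

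In iCLIP, ultraviolet light fixes a protein to the RNA it touches, an antibody recovers the protein with its RNA, and the end of the sequenced fragment gives the crosslinked position. The list is attached by the labels to 3 libraries, in which a monoclonal SF3B1 antibody was used on K562 cells of genotype SF3B1 wt/wt after ultraviolet crosslinking. The series also holds 2 SF3B1 libraries from cells heterozygous for K700E and 4 U2AF2 libraries from SF3B1 wt/wt cells, none of which was analysed here. The header of the list says that sites were reproducible in every replicate of either condition, while the labels name unmutated cells only, so no site is assigned to a genotype. The list has no value per library and no read number. Depth and the spread between replicates are therefore unknown, and no test over samples was possible. All comparisons below are descriptions, and differences between length classes were not tested. The labels describe the line as derived from chronic lymphoid leukaemia, whereas K562 is generally known as a line of chronic myeloid leukaemia in blast crisis. Of 19 erythroid and K562 marker genes, 14 held a site, among them GATA1, TAL1, BCR and ABL1, and of 12 lymphoid marker genes none did, against 36.9% of all 20037 protein-coding genes. A site is no measure of RNA level, and the globin genes HBE1, HBG1, HBG2 and HBZ had none.

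SF3B1 is the largest subunit of the SF3B complex in the U2 small nuclear ribonucleoprotein. This particle pairs with the branch point of an intron, a short distance upstream of the 3′ splice site, and SF3B1 clamps the RNA around it. In very long genes most of the transcript is intron, so that splice sites are separated by long stretches that are removed. Many such genes encode adhesion, synaptic or cytoskeletal proteins, and several overlap common fragile sites, regions of chromosomes that break when replication is slowed.

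No genome sequence was used here, but the RefSeq table of promoter windows reaches into some of these genes. The centres of 12 sites, in 7 genes, fell in such a window, of the gene itself or of another one, and the stretches around them are given 5′ to 3′ on the strand of the site, with the 5 nt of each site in capitals (GRCh38.p14). The first 3 stretches are shown because they run on to the motif TTNCAG, whose letters resemble the end of an intron. The window edge cuts the first COG5 site to 4 nt, and its other sites touch, so their capitals form 1 run.
ADK, adenosine kinase, chr10:74589200-74589300, plus strand: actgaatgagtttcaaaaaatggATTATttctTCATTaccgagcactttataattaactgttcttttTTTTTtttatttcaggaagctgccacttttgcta
COG5, a subunit of a Golgi tethering complex, chr7:107203613-107203679, minus strand: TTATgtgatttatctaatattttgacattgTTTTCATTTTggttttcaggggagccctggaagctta
EIF4G3, a scaffold of translation initiation, chr1:21111384-21111458, minus strand: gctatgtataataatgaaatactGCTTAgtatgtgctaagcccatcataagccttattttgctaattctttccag

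In ADK the centres of the 3 sites lay 56, 47 and 12 nt before the last base of TTNCAG. In COG5 they lay 47, 16 and 11 nt before it, and in EIF4G3 the single site lay 49 nt before it. The ADK and COG5 sites thus formed a distal and a proximal group relative to the motif, and the EIF4G3 site was at the distance of the distal groups. Each stretch held 1 match on the strand of the site, and COG5 held 1 more on the other strand. The motif was chosen after these stretches had been read. Among the first bases of all 35116 windows, cut to the same lengths and searched on both strands, 23.2% held a match at the length of the ADK stretch, 16.0% at that of COG5 and 17.9% at that of EIF4G3. Thymidines made up 44.6% of the ADK stretch, 46.3% of the COG5 stretch and 37.3% of the EIF4G3 stretch.

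The other 5 sites with sequence are shown with 11 nt on either side. No TTNCAG lies within the bases shown, although the second NALF1 stretch ends in CAG. These stretches are too short to hold the motif at the longer distances seen above. Of all windows cut to this length, 6.04% held it on either strand. RAD51B encodes a homologous recombination protein, MSI2 an RNA-binding protein of blood stem cells, and NEBL a protein of the muscle thin filament.
RAD51B, chr14:67823449-67823475, plus strand: ttttaattttgTTTTGgatagcctatt
MSI2, chr17:57257029-57257055, plus strand: ttgtaagttacACGTCaaaatggccga
NEBL, chr10:20845409-20845435, minus strand: gttcaaatctcTTTTCaatggtcactg
NALF1, chr13:107866491-107866517, minus strand: aaccgttcatcGATTCcgagagggctc
NALF1, chr13:107866449-107866475, minus strand: ctctggcatctCTCTTgtttttcacag

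These 5 stretches differed in composition. Thymidines made up 59.3% of the bases around the RAD51B site, 40.7% around NEBL and 25.9% around MSI2. The 2 NALF1 stretches held 22.2% and 44.4%. The MSI2 site lay 23 nt after a listed start of its own gene, and the RAD51B site lay 79 nt before a listed start inside the gene.

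Fewer of the very long genes held a site than genes of intermediate length. A site was present in 208 of 773 genes, or 26.9% (95% Wilson interval 23.9% to 30.1%), against the 36.9% of all protein-coding genes given above. The share was 28.5% in genes under 30 kb, 51.0% in those of 30 to 100 kb and 46.5% in those of 100 to 300 kb. Within the very long genes it was 28.2% from 300 to 500 kb, 27.6% from 500 to 1000 kb, and 15.9% (11 of 69) above 1000 kb. Transcript abundance was not measured, so a gene that was not expressed cannot be told from a gene that was expressed without a reproducible site. Genes with a site had a median length of 440.0 kb and those without one a median of 460.5 kb.

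Sites were concentrated in a few genes. Counting only genes with any, the median gene held 5 sites (quartiles 2 and 13), whereas in genes of 100 to 300 kb it held 9.5. A single site was found in 40 genes, 2 to 4 sites in 55, at least 5 in 113 (14.6% of the 773, against 22.5% of all protein-coding genes) and at least 50 in 11. At least 100 sites were found in 5 genes, against 0.18% of all protein-coding genes, and those 5 held 694 of the 2772 sites. The 10 genes with the most sites held 38.5%, compared with 8.04% for the 10 richest genes of 100 to 300 kb, a class with more genes. In genes of 200 to 300 kb, 259 of which held a site, the 10 richest held 21.8%. Per gene length, the median was 1.21 sites per 100 kb, against 6.21 in genes of 100 to 300 kb and 38.9 in genes under 30 kb.

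**Figure D1:**
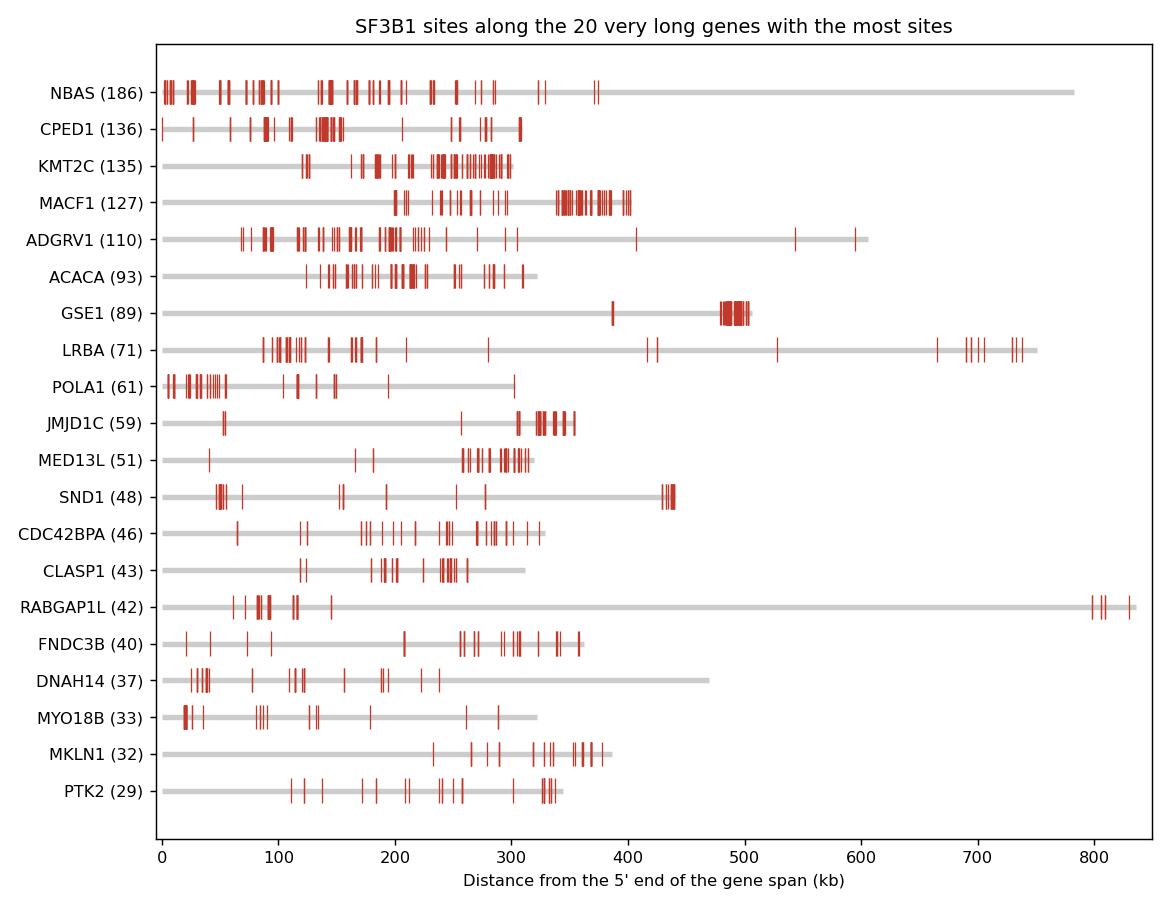
Each grey bar is 1 of the 20 very long genes with the most sites, drawn to length from its 5′ end (horizontal axis in kb), and each red line is 1 SF3B1 site; the number of sites stands beside the name. Sites crowd into parts of the bars: NBAS has none in its last 408.0 kb, GSE1 none in its first 386.3 kb, and RABGAP1L none in a central stretch of 652.6 kb.

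NBAS, which encodes a tethering protein for transport from the Golgi to the endoplasmic reticulum, had the most sites, 186. It lies on chromosome 2 from 14778909 to 15561334 on the minus strand and is 782.4 kb long. Its first site was 1.795 kb from the 5′ end, the median site at 136.7 kb, and no site lay in the last 408.0 kb. The longest gap between neighbours was 42.1 kb, and 22 of its 79 stretches of 10 kb held a site. The sites formed 14 islands, which link neighbours at most 10 kb apart and covered 14.6% of the gene. The 186 sites formed 95 clusters when neighbours at most 60 nt apart were linked, and the largest cluster, of 7 sites in 219 nt, lay on chromosome 2 from 15504052 to 15504270.

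CPED1, KMT2C, MACF1 and ADGRV1 were the other genes with more than 100 sites. CPED1, named for its cadherin-like and esterase domains, had 136 sites spread over 99.7% of its 308.7 kb, from 0.176 kb after its 5′ end to 0.702 kb before its 3′ end. Within that range they were concentrated, with 56 sites in an island of 23.6 kb and 36 in another of 8.35 kb, and its islands covered 17.5% of the gene. KMT2C, a histone methyltransferase that acts at enhancers, had 135 sites, the highest density among the very long genes at 44.8 per 100 kb. Its first 120.6 kb held none, and 95 of its sites lay in 1 island of 68.1 kb. MACF1 links actin to microtubules and had 127 sites, all beyond 199.0 kb of its 403.0 kb. The table lists 3 starts for MACF1, 1 of them 120.5 kb inside the gene and above the first site. ADGRV1, a very large adhesion receptor, had 110 sites, 87 of them in the first of 3 equal parts of its span, and an empty stretch of 136.8 kb further on. The position of the sites thus differed among the 5 richest genes, since NBAS and ADGRV1 were weighted to the 5′ side, KMT2C and MACF1 to the 3′ side, and CPED1 to neither.

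ACACA, acetyl-CoA carboxylase, had 93 sites, with the first at 123.3 kb and a longest gap of only 23.6 kb. In GSE1, a component of histone deacetylase complexes, 83 of 89 sites lay in the last 10%, in an island of 24.0 kb on chromosome 16 from 85648802 to 85672793. The only start listed for GSE1 lay 443.8 kb inside its span of 506.7 kb, between its first site and this island. LRBA, a membrane traffic protein with a BEACH domain, had 71 sites in 11 islands, 55 of them in the first of 3 equal parts. POLA1, the catalytic subunit of DNA polymerase alpha, had 61 sites, with a median position at 13.7% of the gene and 1 lone site beyond a gap of 107.8 kb. JMJD1C, of the jumonji family of histone demethylases, had 5 sites in the first of 3 equal parts and 54 in the last, with 203.1 kb, or 57.3% of the gene, between 2 neighbours. MED13L, of the Mediator kinase module, had 47 of 51 sites in the last such part. SND1, a tudor domain nuclease, had 17 of 48 sites in the first such part and 19 in the last.

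Among the remaining genes of the 20 richest, CDC42BPA (46 sites), FNDC3B (40), MKLN1 (32) and PTK2 (29) had their median site between 74.5% and 89.1% of the gene. RABGAP1L, an activator of Rab GTPases, had 35 of 42 sites in the first of 3 equal parts and 7 in the last. DNAH14, an axonemal dynein heavy chain, had 37 sites and none in its last 231.4 kb. MYO18B, an unconventional myosin, had 33 sites with a median at 6.56% of its length. Its largest cluster held 8 sites in 119 nt, from 25763162 to 25763280 on chromosome 22. The promoter table gives no strand for MYO18B, so its direction was taken from its sites, as for 32 genes with 276 sites in all.

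The fixed lists of gene groups were chosen with earlier results of these data known. Of the 40 neuronal adhesion and synapse genes, 3 held a site, against 26.9% of all very long genes. These genes had a median length of 1166.9 kb, and of all genes over 1000 kb 15.9% held a site. DLGAP1 had 9 sites, all on the strand opposite to the gene, and PCDH9 and TENM3 had 1 each. CNTNAP2 and PTPRD, which are synaptic and adhesion genes, held no site, and neither did RBFOX1, a neuronal splicing regulator, at 2473.6 kb the longest gene here. Of the 21 common fragile site genes, 7 held a site, at a median length of the list of 1380.4 kb. IMMP2L, a subunit of the mitochondrial inner membrane peptidase, had 24, CSMD1 had 9, EXOC4 had 8, DMD had 6, FHIT had 5, RAD51B had 2 and WWOX had 1. DLG2, MACROD2 and LRP1B were among those that held none.

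The other 5 lists ranged from 26.7% to 63.2% of genes with a site, and no difference between lists was tested. Of the transcription and chromatin regulators of at least 300 kb, 12 of 19 held a site (63.2%), in a list of shorter genes with a median of 413.8 kb, led by KMT2C, JMJD1C and RERE (23 sites), while FOXP1, BACH2 and HDAC9 held none. Of the membrane traffic genes, 8 of 13 did (61.5%), led by NBAS, LRBA and RABGAP1L, with 26 sites in VPS13B and 24 in COG5. Of the cytoskeletal genes, 12 of 22 did (54.5%), among them MACF1, CLASP1 with 43 sites and DST with 19, but neither SYNE1 nor SYNE2. Of the genome maintenance, cell cycle and RNA genes, 8 of 14 did (57.1%), led by CDC42BPA with 46 sites and IMMP2L with 24. MSI2 followed with 14 sites and CDKAL1, a tRNA-modifying enzyme, with 11. The name of this list is loose, since its leading genes, the kinase CDC42BPA and the peptidase subunit IMMP2L, do not match it. CDC42BPA is not in the list of signalling kinases. Signalling kinases, phosphatases and phosphodiesterases held sites in 4 of 15 genes (26.7%), TNIK with 21, PRKCA with 9, RPTOR with 6 and FER with 4. Some genes stand in several lists, so that the lists together comprise 139 different genes of at least 300 kb, 50 of them with a site.

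Distances between neighbouring sites ranged from 5 nt, where sites touch, to 652.6 kb. For neighbours on the same strand, the median distance was 198 nt and the quartiles were 26 and 5074 nt. It rested on the richest genes, since without the 10 genes with the most sites the median was 790 nt. Distances of at most 60 nt made up 39.9% of all, as against 39.9%, 39.9% and 38.9% in the 3 shorter length classes. The share between 61 and 1000 nt was 21.2%, compared with 42.4% in genes under 30 kb and 26.0% in genes of 100 to 300 kb. Distances of 1 to 10 kb made up 20.4%, compared with 17.1% and 24.9% in these classes. Distances over 10 kb made up 18.6%, compared with 0.586% in genes under 30 kb and 10.1% in genes of 100 to 300 kb. Genes of 200 to 300 kb were closer, with 21.0% of distances between 61 and 1000 nt and 15.2% over 10 kb. In absolute numbers, 475 distances exceeded 10 kb and 73 exceeded 100 kb. The classes thus differed in the long distances and in those of 61 to 1000 nt, while the share of distances up to 60 nt was almost the same in each. Long distances need a long span, so a higher share of them in long genes follows in part from the length itself.

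**Figure D2:**
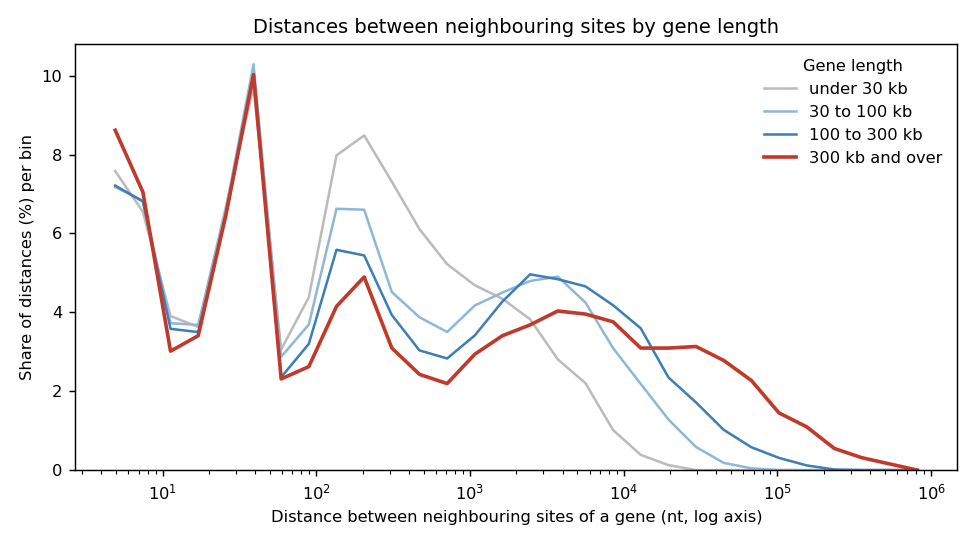
Share of distances between neighbouring sites of a gene (vertical axis, % per bin) against the distance in nt on a log axis, with 1 line per class of gene length. The line of genes of 300 kb and over runs close to the others below 60 nt apart from a higher first bin (8.62%, against 7.58% in genes under 30 kb), lies lowest between about 100 and 1000 nt, and highest above 20 kb.

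At short range, cluster sizes were close to those of the shorter classes, while some spacings differed. With neighbours up to 60 nt apart linked, the sites fell into 1752 clusters. Their mean size was 1.58 sites, as in genes of 100 to 300 kb. Single sites made up 62.6% of the clusters (95% Wilson interval 60.3% to 64.8%) and 62.6% in that shorter class. There were 406 clusters of 2 sites, 166 of 3, 64 of 4 and 19 of 5 or more, and 60.4% of the sites had at least 1 partner in their cluster. Pairs of sites 25 to 45 nt apart numbered 645 and pairs 46 to 66 nt apart 157, a ratio of 4.11, against 4.01, 3.56 and 3.19 in the classes of decreasing length. In finer classes the ratio did not rise steadily, with 4.96 from 200 to 300 kb, 5.08 from 300 to 500 kb and 2.89 from 500 to 1000 kb. Without the 10 genes with the most sites the ratio was 5.92, and in genes of at least 500 kb it was 3.01. Pairs 140 to 180 nt apart numbered 246 and pairs 60 to 100 nt apart 190, a ratio of 1.29, against 1.72, 1.64 and 1.88 in the classes of decreasing length. These differences were not tested.

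The largest cluster of all, of 9 sites in 186 nt, lay in CPED1 on chromosome 7 from 121129990 to 121130175. CPED1 also had a cluster of 7 sites in 140 nt, and MKLN1, a subunit of a ubiquitin ligase, had 1 of 7 sites in 194 nt. In MSI2, 6 of the 14 sites formed a cluster of 122 nt on chromosome 17 from 57262101 to 57262222, at 1.41% of the gene. Between clusters, the median distance was 2934 nt, with quartiles of 346 and 15705 nt. Linked at 10 kb, the sites formed 691 islands, and islands of at least 5 sites held 65.3% of the sites. In the 113 genes with at least 5 sites, a gene had a median of 5 islands, and the islands covered a median of 2.14% of its length.

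The longest gap inside a gene reached 652.6 kb. It lay in RABGAP1L between positions 174304940 and 174957586 of chromosome 1 and made up 78.1% of the gene. It was followed by EXOC4, a subunit of the exocyst, with 600.3 kb, and FHIT, a fragile site gene, with 503.3 kb. By share of the gene, the gap of 428.6 kb in SPIDR was 90.2%, with 6 of its 7 sites in the last 10% of the gene. RFX3 had 84.7% of its span between 2 neighbours, MSI2 81.9%, TCF4 79.7%, DOCK2 75.9% and THADA 73.5%. CDKAL1 and TENM1 had gaps of 355.0 kb and 329.0 kb. In the genes with at least 5 sites, the longest gap had a median of 82.7 kb, exceeded 100 kb in 48 genes, and exceeded 50% of the gene in 14. As a share of the gene its median was 19.3%, against 18.0% in genes of 100 to 300 kb and 21.9% in genes under 30 kb. With the comparison kept to genes of 10 to 20 sites, the medians were 21.1% in 37 very long genes, 20.3% in genes of 100 to 300 kb and 22.2% in genes under 30 kb. Relative to gene length, the longest gap was thus of similar size in every class.

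**Figure D3:**
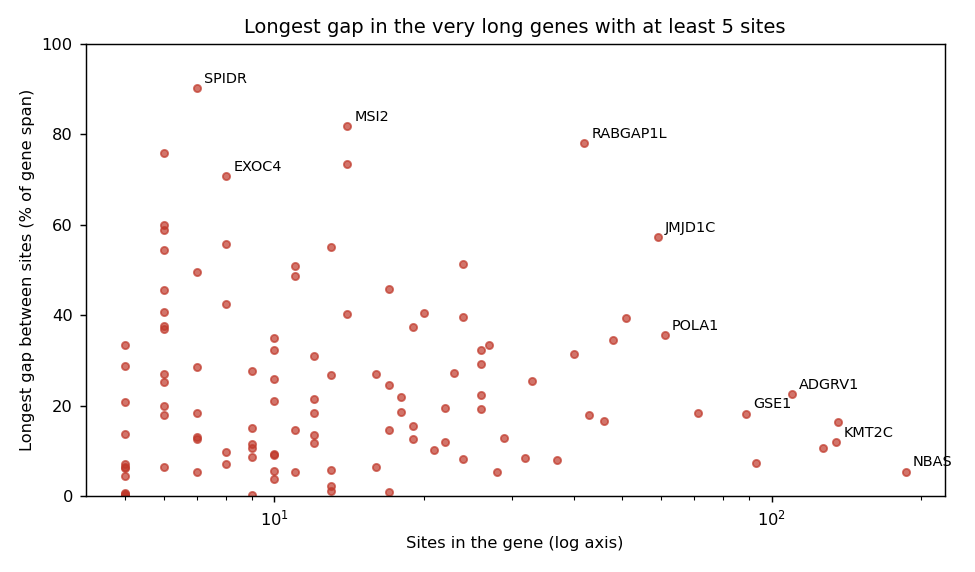
Longest distance between neighbouring sites as % of the gene span (vertical axis) against the number of sites in the gene (log axis) for the 113 very long genes with at least 5 sites, 1 point per gene. RABGAP1L (42 sites, 78.1%) and JMJD1C (59 sites, 57.3%) stand above the other genes with more than 20 sites, and NBAS (186 sites) has 5.38%.

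Sites of very long genes were more frequent in the last than in the first 10% of the RefSeq span. Among the 113 genes holding 5 sites or more, the last 10% of the span contained 607 of 2572 sites, or 23.6% (95% Wilson interval 22.0% to 25.3%), and the first 10% contained 303, or 11.8% (10.6% to 13.1%). Between the first and the last site of each gene, the shares were 21.8% in the last 10% and 21.6% in the first. Genes of 100 to 300 kb had 17.1% in the last 10% and 4.15% in the first, those of 30 to 100 kb had 12.7% and 3.85%, and those under 30 kb had 8.73% and 4.67%. The stretch from 30% to 80% of the gene held 32.0% of the sites, compared with 52.8%, 57.9% and 58.5% in these shorter classes. Averaged over genes, the first 10% held 13.7% and the last 27.5%, against 4.71% and 20.7% in genes of 100 to 300 kb. Without the 10 genes with the most sites, the shares were 14.2% and 24.3%, and on the strand listed for the gene alone they were 10.8% and 23.4%. Without NBAS, the gene with the most sites in the first 10%, they were 9.97% and 25.4%. A first share well above that of the shorter classes was present from 300 to 500 kb (9.30%) and from 500 to 1000 kb (15.3%), but genes of 200 to 300 kb had 4.59%. Their last 10% held 22.4% of the sites, close to the 23.6% of the very long genes. Above 1000 kb, 4 genes with 37 sites had 45.9% in the first 10% and 27.0% in the last, and all 17 sites of the first 10% were those of RANBP2, the nuclear pore gene. Sites of a gene are not independent, and the intervals do not cover variation between genes.

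**Figure D4:**
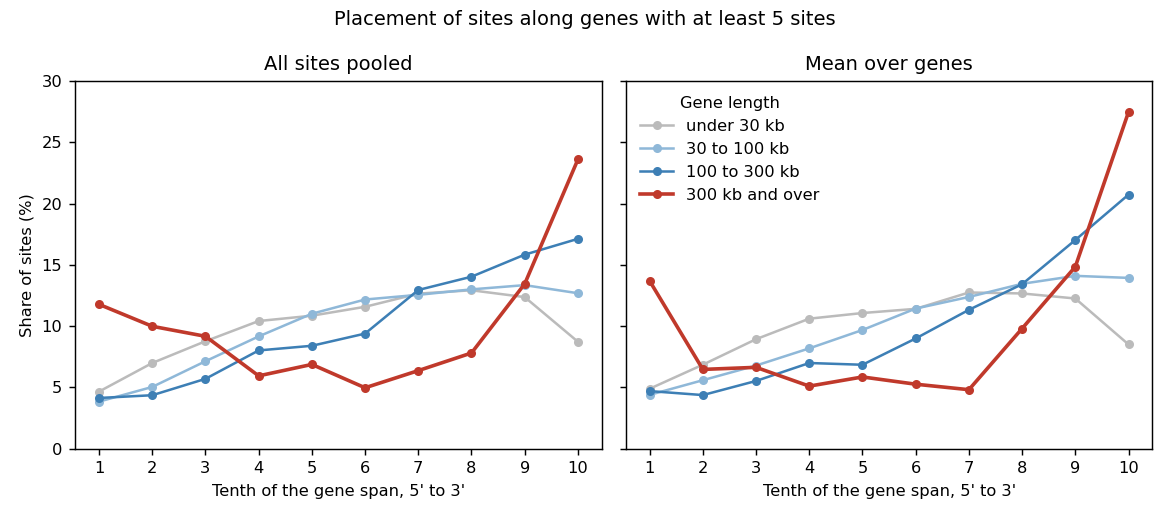
Share of sites (vertical axis, %) in each of 10 equal parts of the gene span from 5′ to 3′ (horizontal axis) for genes with at least 5 sites, pooled over sites on the left and averaged over genes on the right, 1 line per class of gene length. Genes of 300 kb and over have 11.8% of pooled sites in the first 10% and 23.6% in the last, with lower shares between, while the shorter classes start under 5%.

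Few genes had sites at both ends of the span. Of the 113 genes, 69 had more sites in the last 10% than in the first, 27 had fewer and 17 had equal numbers. Of 823 genes of 100 to 300 kb, 545 had more, 114 fewer and 164 equal numbers. Of 170 genes of 200 to 300 kb, 113 had more, 24 fewer and 33 equal numbers. With the span cut into 3 equal parts, the median position lay in the last part of 65 genes, in the first part of 30 and in the middle part of 18. Only 18 genes had sites in both the first and the last 10%, 75 had none in the first 10% and 36 none in the last. Of the 70 genes with at least 10 sites, 15 had all sites in the last 50% of the span, 7 had all in the first 50%, and in 11 the sites spanned at most 25% of the gene. Thus the pooled profile with 2 raised ends combined genes with more sites at the 3′ end and genes with more at the 5′ end.

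At the 5′ end, NBAS contributed 65 sites of the first 10%, POLA1 20, MYO18B 19, RANBP2 17, and AFG2A and DNAH14 16 each. MSI2 had its median site at 1.42% of the gene, CDKAL1 at 2.02%, AFG2A, an ATPase of ribosome maturation, at 2.64%, METTL15, a mitochondrial ribosomal RNA methyltransferase, at 4.05%, and RANBP2 at 5.50%. RANBP2 encodes a nuclear pore protein, and all 17 of its sites lay between 29.5 kb and a point 1058.7 kb before the 3′ end of a span of 1122.8 kb. IMMP2L had 13 of 24 sites in the first 10%, the first of them 0.062 kb from the 5′ end. Spans here are the outermost ones of RefSeq, and how much of each was transcribed in these cells was not measured.

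At the 3′ end, GSE1 contributed 83 sites, JMJD1C 43, KMT2C and MACF1 42 each, and MED13L 24. Among genes with at least 10 sites, B3GALT1 had its median site at 99.3% of the gene, with all sites on the strand opposite to the gene. ARL15, a small GTPase of the ADP-ribosylation factor family, followed at 99.2%, GSE1 at 97.0%, CAST, the calpain inhibitor, at 96.1% and PRKCB, a protein kinase C, at 95.4%. CAST resembled RANBP2 in reverse, as its 13 sites began 767.7 kb into a span of 813.3 kb. DMD, the dystrophin gene, had 6 sites in 2220.2 kb, the first of them 1681.2 kb from the 5′ end. CSMD1 had 9 sites in 2059.6 kb, none before 1843.6 kb. Among the next longest genes with a site, FHIT had 5 sites, GPHN and KAZN 4 each, SPAG16 2, and TENM3, WWOX and ZFHX3 1 each. MECOM, a transcription factor gene rearranged in myeloid leukaemia, had 5 sites, the first at 519.8 kb of 580.2 kb.

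The stretch without sites before the first one was longer than that after the last one, as in every shorter class. The first site lay a median of 85.5 kb from the 5′ end and the last a median of 14.8 kb from the 3′ end. As median shares of the gene, these stretches were 21.4% and 3.07%. They were 28.5% and 4.04% in genes of 100 to 300 kb, and 25.3% and 7.67% in those of 30 to 100 kb. The share before the first site was thus no larger than in these classes, although it was 39.7% from 500 to 1000 kb. In 53 of the 113 genes the first 100 kb held no site, and in 24 the last 100 kb held none. These counts were not made in shorter classes. For 94 of the 113 genes the promoter table lists at least 1 start, and for 45 it lists several. In 29 of those 45, a start more than 1 kb inside the gene lay above the first site. In these 29 genes the first site was a median of 201.1 kb from the 5′ end of the span, and 41.4 kb from the nearest start above it. The second distance is the shorter one by definition, since the genes were selected for such a start. Which of the starts were used in K562 cells was not measured.

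Some very long genes held sites only on the strand opposite to the gene. In genes with a listed strand, 56 of 2496 sites lay on the strand opposite to the gene, or 2.24% (95% Wilson interval 1.73% to 2.90%), against 0.349% of sites in all protein-coding genes with a listed strand. The share was 0.233% in genes under 30 kb, 0.244% from 30 to 100 kb and 0.426% from 100 to 300 kb. In genes of 200 to 300 kb it was 1.29%, close to the 1.26% from 300 to 500 kb. It was 3.36% from 500 to 1000 kb, where B3GALT1 and DLGAP1 held 10 and 9 of the 29 opposite sites. Above 1000 kb it was 16.3%, with 7 of 43 sites opposite, in KAZN (4), GPHN (2) and ZFHX3 (1). Sites of a gene are not independent, and the interval does not cover variation between genes. Of the 56 sites, 42 fell inside a long non-coding RNA gene of the table, against 3.73% of the 2440 sites on the strand of the gene. In 10 of 176 genes (5.68%) every site was on the opposite strand, against 0.871% of genes of 100 to 300 kb, so that 166 genes had a site on their own strand. The 10 genes held 48 of the 56 opposite sites.

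B3GALT1, a galactosyltransferase gene, had 10 sites, all opposite and all inside B3GALT1-AS1, on chromosome 2 between 167815220 and 167870933. DLGAP1, which encodes a scaffold protein of the synapse, had 9 opposite sites, all inside DLGAP1-AS2. CACNB2, a calcium channel subunit, had 8 opposite sites, 1 of them inside CACNB2-AS1. TMEM132D, XYLT1 and KAZN had 5, 5 and 4 such sites, all inside a non-coding gene, and MCTP1 had 4 with no non-coding gene of the table over them. KCNMB2, ZFHX3 and ZNF385D had a single site, opposite in each. CLASP1, CCNY, FAM13A, ITPR1 and SGMS1 had 1 or 2 opposite sites beside 12 to 41 on their own strand. In CLASP1 the 2 opposite sites lay where the table places CLASP1-AS1 and RNU4ATAC, the gene of a small nuclear RNA of the minor spliceosome. The rule takes no account of strand, so it counts all of these as sites of the gene.

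**Figure D5:**
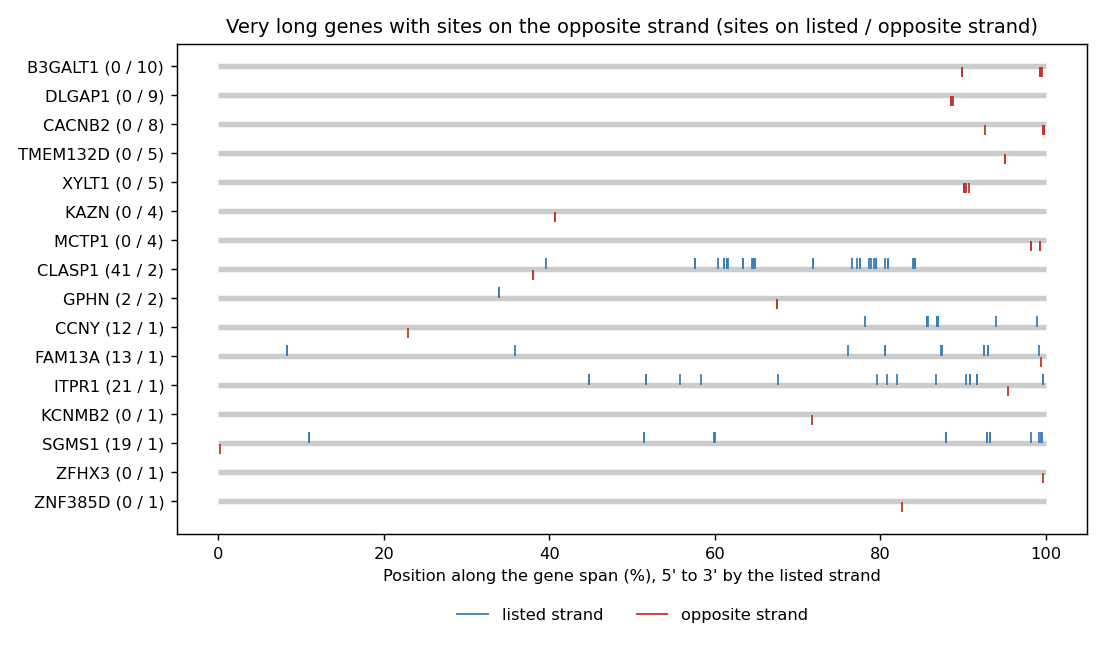
Each grey bar is 1 of the 16 very long genes with sites on the opposite strand, scaled to 100% of its span from 5′ to 3′, with sites on the listed strand above the bar in blue and opposite sites below it in red. The numbers beside each name are the sites on the listed and on the opposite strand; B3GALT1 and DLGAP1 have 0 on their own strand.

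The numbers of sites varied widely on either side of the limit of 300 kb. The genes with a site just above it were KMT2C (301.1 kb, 135 sites), CLYBL (302.8 kb, 1), POLA1 (303.1 kb, 61), ATG7 (304.0 kb, 10) and GULP1 (304.1 kb, 2). Those just below it were CHCHD3 (297.2 kb, 17 sites), WDFY3 (297.1 kb, 13), ZDHHC14 (297.0 kb, 18), XRCC4 (296.9 kb, 3) and CEP63 (296.8 kb, 2).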

How the data were processed

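The authors deposited 1 list of merged binding sites, each 5 nt wide and, per the file headers, reproducible in all replicates of either condition. Its score column, as deposited by the authors, is 0 in every row and was not used. Per the submitters' processing notes, FastQC 0.11.8, STAR 2.7.3a and 2.6.1b, UMI-tools 1.0.0 and bedtools 2.27.1 were used with builds GRCh38.p10 and GRCh38.p12, whose roles are not given. The site caller is not given in the sources used here.

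Positions were made 1-based, and the centre of a site was set against RefSeq gene spans of GRCh38.p14 on chromosomes 1 to 22, X and Y. Direction came from the strand in the RefSeq promoter table or, where it lists none, from the strand with most sites. Exons were not used. Clusters link neighbours on one strand of a gene at most 60 nt apart, and islands at most 10 kb. Genes were named by rule: the 20 with the most sites, the 10 longest with a site and 5 longest without, the 5 densest, the 5 with the largest clusters, the 5 nearest the limit on each side, members of the fixed lists and, among genes with at least 10 sites, the 5 with the longest gap and the 5 most shifted to each end. Other genes were named after their values were seen. Alternatives changed the length limit, the linking distance, the treatment of touching or shared sites, the strand and the genes used. The members and lists were chosen with earlier results of these data known. The functions were tested on simulated data. Python 3.11.15, NumPy 2.4.6, pandas 2.3.3, SciPy 1.17.1 and matplotlib 3.10.9 were used. Some genes are not reported here.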

Additional observations from a re-analysis of the deposited data

How the results depend on the processing

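Each of 8 results was recalculated under alternatives, 79 times in all, 16 of them (without NBAS, or with only sites on the listed strand) chosen after seeing the data. Of these, 62 stayed within 1.5 times of the value given or, for shares, within its 95% Wilson interval. A limit of 200 kb gave 7006 sites in 467 genes, and 1 of 500 kb gave 960 sites in 79 genes, since other genes were counted. Without the 10 genes with the most sites, 1705 sites were left, with a median gap of 790 nt and 65.4% single-site clusters. With 1 site per running number, the median gap was 361 nt and the single-site share 68.5%, and with touching sites merged that share was 65.1%. It was 75.4%, 60.2% and 50.5% when neighbours were linked at 30, 100 and 1000 nt. The share of sites in the last 10% of the gene was 27.5% as a mean over genes and 25.4% without NBAS. With the span taken from the first to the last site it was 21.8%, and the first 10% held 21.6%. Each gene then has a site at both ends by definition. The last 10 kb held 7.43% and the first 10 kb 3.73%. Pairs at 25 to 45 nt outnumbered those at 46 to 66 nt in every alternative, by a ratio between 3.01 and 5.92. Leaving out single replicates was not possible with a merged list. No paired analysis was possible because values of single replicates are not in the merged list.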
